A study of Mus musculus with 48 samples.

Results

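Joints made by the signal end of the Jκ1 break in the mouse Igκ locus were compared between cycling and G0-G1-arrested WT *vAbl* cells. The 6 libraries chosen are those labelled WT with the Jκ1 signal end (Jκ1SE) as bait, 3 from cycling cells and 3 from cells given STI-571 with DMSO, out of 48 in the series. *vAbl* cells are murine progenitor B cells transformed by the Abelson kinase, and STI-571 blocks that kinase (3 μM for 96 h here). HTGTS-JoinT-seq shears genomic DNA, copies outward from the bait end and reads which position of the genome, the prey, was joined to it. All 6 libraries carry WT alleles and come from a single clone (clone B in the methods), so they describe that clone. Cycling libraries are labelled without STI-571 or DMSO, and the effect of DMSO cannot be told apart from that of STI-571. The labels name no cultures, so p-values measure the spread between libraries, part of which may be technical.

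RAG1/2 cuts between a gene segment and its recombination signal sequence, which consists of a heptamer, a spacer and a nonamer. Each break leaves a hairpin-sealed coding end and a blunt signal end. NHEJ joins the 2 coding ends to each other and the 2 signal ends to each other, and a signal end joined to a coding end is called a hybrid joint. Vκ segments lie in both orientations relative to Jκ. A segment in deletional (DEL) orientation leaves its signal joint on an excised circle, which is not copied with the chromosome, while a segment in inversional (INV) orientation keeps its signal joint in the chromosome. Both RAG genes are expressed in arrested *vAbl* cells, and cycling cells are held to express little of them.

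The signals that carry these joints are shown here as read from mm9 chromosome 6 (NCBIM37), 5′ to 3′, with heptamer and nonamer in capitals. The first line is the Jκ1 signal on the plus strand (nonamer, spacer, heptamer, then the coding end), and the bait is everything up to and including the heptamer. The second is a precise signal joint to Igkv1-135, in which both heptamers meet and no base is lost.
Jκ1, chr6:70672517-70672575: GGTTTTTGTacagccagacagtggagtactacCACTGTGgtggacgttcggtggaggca
Jκ1 to Igkv1-135: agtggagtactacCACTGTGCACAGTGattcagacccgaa

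The next 4 lines are sites whose use differed most between the groups or that were used most, each as the last 20 coding bases, heptamer, spacer and nonamer in the direction of transcription. The first pair are DEL sites on the plus strand and the second pair INV sites on the minus strand.
Igkv1-135, chr6:67560483-67560530: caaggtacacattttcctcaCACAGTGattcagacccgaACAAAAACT
Igkv12-98, chr6:68521210-68521257: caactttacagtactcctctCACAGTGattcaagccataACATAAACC
Igkv4-50, chr6:69650733-69650780: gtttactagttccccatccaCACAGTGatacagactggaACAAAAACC
Igkv6-32, chr6:70023990-70024037: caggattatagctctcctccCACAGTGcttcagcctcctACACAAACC
CACAGTG stood at the break, in the site's own orientation, at 111 of 138 Vκ sites (80.4%), at 29 of the 36 sites whose use rose and at 19 of the 20 whose use fell. The median number of nonamer positions that matched ACAAAAACC was 8 at the sites that rose and 9 at those that fell, and these differences were not tested.

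The last 2 lines are elements beyond Jκ that matter below, both on the plus strand. The first is an isolated heptamer in the Jκ-Cκ intron (iRS), whose capitals after the spacer length mark a nonamer position with little likeness to a nonamer. The second is the recombining sequence (RS) downstream of Cκ, which has a long spacer and is known for the deletion of Cκ.
iRS, chr6:70674988-70675035: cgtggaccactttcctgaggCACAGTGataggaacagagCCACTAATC
RS, chr6:70701736-70701794: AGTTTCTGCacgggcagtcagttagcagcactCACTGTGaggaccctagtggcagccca

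Each library had been taken down to 500000 read pairs. Cycling libraries held 24269, 25104 and 22602 junctions and arrested libraries 352630, 339201 and 339326. Vκ break sites were defined from junction pileups followed by CAC in 9 arrested WT Jκ1SE libraries, those without a ligase inhibitor and those given L67 or L82-G17. This gave 138 sites, 63 DEL and 75 INV. Junctions within 200 bp of a site (site junctions) made up 4.09% ± 0.192 of read pairs in cycling cells and 65.8% ± 1.53 in arrested cells (SD, n = 3 each), a 16.1-fold difference. With 3 libraries against 3, the exact two-sided permutation test used for single values cannot give a p below 0.1. Every such test below gave 0.1 where the groups did not overlap, unless a p is printed. The files keep PCR duplicates, so a junction is a read and not a molecule. When each distinct junction was counted once, cycling libraries held 373 to 375 junctions and arrested libraries 2291 to 3051. Libraries of 1 group differed in site usage by more than counting error, with a chi-square of 29.2 to 50.6 per degree of freedom between pairs.

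Arrested cells held nearly as many excision circles as inversions at the Jκ1 signal end, while cycling cells held mostly inversions. Prey strand and side of the bait break give the product of each chromosome 6 junction if both ends lie on the same chromosome copy. In cycling libraries circles made up 12.9%, 10.997% and 11.5% of these junctions, and in arrested libraries 49.3%, 48.3% and 48.6%. Inversions made up 78.1%, 76.4% and 78.3% in cycling and 48.9%, 49.7% and 49.3% in arrested libraries. Chromosomal deletions made up 10.6% ± 1.83 in cycling and 1.98% ± 0.176 in arrested cells. None of these groups overlapped. For deletions the order depended on read copies: counted once, distinct deletion junctions made up 7.19%, 6.33% and 7.84% in cycling and 8.10%, 8.16% and 8.87% in arrested libraries.

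Per read pair all 3 products were more abundant after arrest, by unequal factors. Circles went from 5.51 ± 0.560 to 333.9 ± 10.7 junctions per 1000 read pairs, a 60.6-fold difference. Inversions went from 36.3 ± 1.64 to 337.9 ± 5.195, which is 9.30-fold. Deletions went from 5.00 ± 1.02 to 13.6 ± 0.963, which is 2.72-fold. The same split stands in the strand of preys within the Vκ region (67.5 to 70.66 Mb). The plus strand held 14.4%, 12.9% and 12.9% of junctions there in cycling libraries and 49.9%, 49.0% and 49.4% in arrested libraries. DEL sites took 13.8% ± 0.655 of site junctions in cycling and 49.0% ± 0.531 in arrested cells. Counting each distinct junction once narrowed the gap, to 22.9% to 24.9% against 41.4% to 43.5%.

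**Figure D1:**
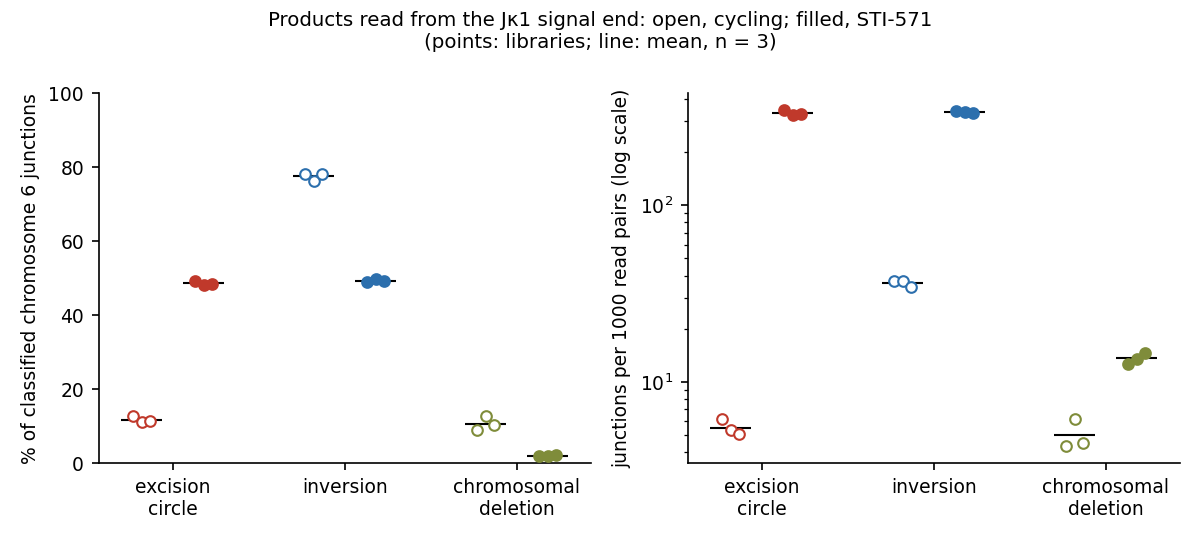
Junctions of the Jκ1 signal end on chromosome 6 by product, as a percent of the classified junctions (left) and per 1000 read pairs on a log scale (right); each point is a library, open for cycling and filled for STI-571, and the line is the mean of 3. Circles and inversions lie side by side in arrested cells, at 48.7% and 49.3%, and far apart in cycling cells, at 11.8% and 77.6%.

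Fragments of cycling libraries were often seen in arrested libraries too. Of the distinct fragments at DEL sites in a cycling library (same junction and same sheared end), 79.2% to 84.2% also occurred in an arrested library and 12.1% to 16.9% in another cycling library. At INV sites the same shares were 76.4% to 81.2% and 35.9% to 45.5%. Arrested libraries held far more fragments, and the part of carry-over between libraries in these figures was not tested.

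Use of single Vκ sites moved with their orientation. Usage is given as junctions per 1000 site junctions, and a change as the difference of log2(usage + the value of 1 junction), arrested minus cycling, from limma. Of 110 sites tested (a mean of at least 50 junctions), 36 rose (32.7%) and 20 fell (18.2%) at an adjusted p under 0.05. With each distinct junction counted once, 7 rose and 67 fell, and with fragment ends kept 41 rose and 44 fell. These 2 fits used no filter, so they also hold the sites not tested here. In the first, cycling libraries held 270 to 280 site junctions and arrested libraries 1713 to 2307. The 1 junction added then weighs more in cycling libraries and lowers the change, so these counts cannot show how far read copies matter. Of the 47 DEL sites tested, 33 rose and 0 fell at this threshold, with a median change of 2.27. Of the 63 INV sites, 3 rose and 20 fell, with a median of -0.30, against 0.93 over all sites tested. The 0 is that of the limma fit, in which all 47 DEL sites had a change above 0. Sites next to no gene are named by their mm9 position on chromosome 6. The remaining 28 sites were not tested, with means of 47.7 junctions or less. Most DEL sites passed the filter through the arrested group: 16 of the 47 had a mean of 50 junctions in cycling libraries, against 49 of the 63 INV sites. Of those 16 DEL sites 9 rose and 0 fell in the same limma fit, with changes of 0.41 to 2.65 and a median of 1.53. Of the 49 INV sites 1 rose and 20 fell, with a median of -0.68. Leaving out arrested replicate 1 or 3 left 22 or 23 rises. With the sites defined from cycling libraries instead, 21 rose and 19 fell.

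**Figure D2:**
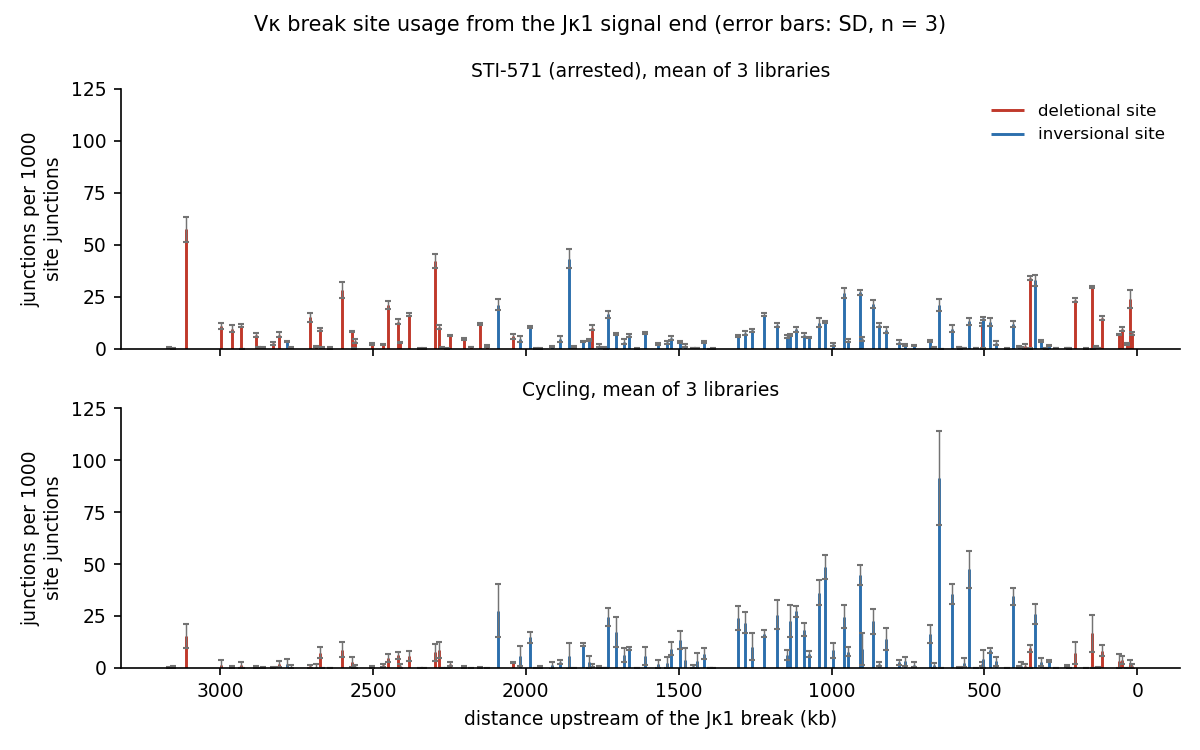
Usage of each Vκ break site (junctions per 1000 site junctions, mean of 3 libraries with SD) against its distance upstream of the Jκ1 break in kb, in arrested (top) and cycling (bottom) cells, with DEL sites in red and INV sites in blue. Igkv1-135 is the tallest bar of the arrested group at 57.4 and Igkv6-32 that of the cycling group at 91.4.

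The 5 most used sites of arrested cells came from both orientations and lay 335.9 to 3112.1 kb from Jκ1. Igkv1-135, a DEL gene near the Jκ-distal end (chr6:67559739-67560502), led with 56.4, 52.0 and 63.7 per 1000 in arrested and 9.89, 14.97 and 21.5 in cycling libraries. This is a rise of 1.95 ± 0.345 (SE, limma adjusted p = 0.00604). Igkv16-104, also DEL, had 45.7, 39.4 and 41.2 against 3.58, 11.6 and 7.07, a rise of 2.65 (limma adjusted p = 0.00591). Igkv6-17, a DEL gene 350.6 kb from Jκ1, had 34.0, 35.0 and 33.1 against 11.3, 7.63 and 9.14, a rise of 1.87 (limma adjusted p = 0.00378). In all 3 the groups lay well apart.

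The other 2 of these 5 sites, Igkv1-88 and Igkv8-16, are INV genes. Igkv1-88 had 46.9, 45.1 and 38.1 per 1000 in arrested and 1.18, 2.90 and 12.9 in cycling libraries, a rise of 3.59 (limma adjusted p = 0.0179). Its cycling libraries spread widely, with replicate 3 the highest. The call was lost without any one of the arrested replicates, at adjusted p values of 0.0568 to 0.0644 in limma. Igkv8-16 had 30.1, 35.4 and 32.9 against 20.6, 29.8 and 27.4, and its change of 0.35 did not pass (limma adjusted p = 0.277). The 2 other INV sites that rose lie next to no annotated gene, at 68830171 and 69829343, and both met the filter through the arrested group. The site at 69829343 went from 1.98 ± 0.992 to 11.3 ± 0.867.

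The 10 largest rises among sites whose groups did not overlap were all at DEL sites. None of the 10 reached a mean of 50 junctions in cycling libraries, so each passed the filter through the arrested group. Their orientation, their calls and the p-values printed for them are a description only. Igkv12-98 rose most in this fit, from 0, 5 and 5 junctions in cycling to 3878, 3938 and 3830 in arrested libraries, or 0.167 ± 0.144 to 11.8 ± 0.324 per 1000 (change 6.19 ± 0.779, limma adjusted p = 0.00363). Igkv1-122 had 7, 8 and 33 junctions in cycling and 4913, 4281 and 5661 in arrested libraries, a rise of 4.50 (limma adjusted p = 0.00391). Igkv3-3, close to Jκ, had 1 junction in all cycling libraries and 558, 772 and 759 in arrested ones. As a share of site junctions that is 129.8-fold, with an exact 95% counting interval of 23.3 to 5129, which treats read copies as separate counts. With distinct junctions its change was -0.068, and with fragment ends kept 2.40. As only 1 cycling junction was seen, the first value rests on the junction added to each library and shows no fall. At all 3 genes each arrested library held far more junctions than any cycling library.

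At 3 of the 10 no junction was seen in any cycling library. Igkv1-99 had 279, 281 and 268 junctions in arrested libraries, and was at least 17.1-fold higher in use, taking 3 junctions over the cycling group as the limit. Igkv3-9 was at least 19.1-fold higher by the same limit. The site at 68544371, with no annotated gene, was at least 26.4-fold higher. These limits too count read copies, and they cover counting error only. Cycling libraries differed by more than that, with 0, 0 and 84 junctions at Igkv1-133, so the limits are not firm lower bounds. With distinct junctions the changes of Igkv1-99, Igkv3-9 and 68544371 were -0.58, -0.27 and 0.07, and with fragment ends kept 1.56, 1.74 and 2.29. As no cycling library held a junction there, these values hang on the 1 junction added to each library. It weighs more in the smaller cycling lists, so a value below 0 shows no fall. Igkv1-132, Igkv1-133, Igkv3-1 and Igkv14-100 complete the list with changes of 5.73, 5.65, 5.35 and 4.94. Their cycling junctions came mostly from 1 library: 23 of 24 from replicate 2 for Igkv1-132, all 84 from replicate 3 for Igkv1-133, and all 47 and 25 from replicate 2 for Igkv3-1 and Igkv14-100. Igkv1-133 had a limma adjusted p of 0.0483, and 0.104 to 0.124 without an arrested replicate or cycling replicate 1 or 2. Igkv3-1 and Igkv14-100 also lost their calls without any one arrested replicate or cycling replicate 1 or 3, at 0.0567 to 0.103.

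The 10 largest falls among sites past the threshold whose groups did not overlap were all at INV sites. Of these 10, 9 lie within 1495.7 kb of Jκ1. All 20 sites that fell are INV. Of the 63 INV sites tested, 28 lie 802.6 to 1592.6 kb from Jκ1 and 18 lie nearer than that. Orientation and position of the 10 are thus a description only. Igkv6-32 was the most used site of cycling cells, with 79.1, 117.7 and 77.5 per 1000, and stood at 23.8, 21.2 and 18.03 in arrested libraries. That is a fall of 2.10 ± 0.277 on the log2 scale (limma adjusted p = 0.00378). Igkv4-50 had 54.4, 42.8 and 49.1 in cycling and 13.1, 12.9 and 12.3 in arrested libraries, and fell by 1.93. Igkv8-27 had 51.5, 37.0 and 53.6 against 11.1, 14.7 and 13.3, and fell by 1.85. Its heptamer is CACAATG. Igkv8-30, Igkv4-61, Igkv4-72, Igkv4-86, Igkv5-48, the pseudogene Igkv4-56 and the site at 69994105 fell by 1.74 to 2.10. The other 2 of the 5 most used sites of cycling cells, Igkv12-44 and the site at 69631399, fell by 0.72 and 1.54. Igkv12-44 lost its call without any one arrested replicate (limma adjusted p 0.114 to 0.124).

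A fall in share was not a fall in number. Per read pair, all of these INV sites had more junctions in arrested cells: Igkv6-32 went from 1681, 2437 and 1501 to 8040, 6886 and 5849 junctions, and Igkv4-50 from 1155, 887 and 952 to 4435, 4194 and 4004. On that scale the median change over tested sites was 4.94, and 107 sites rose and 0 fell (limma). Directions of single sites in this account are therefore relative to the other sites of the same library.

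Vκ families differed in how their members were called, given here with the orientation of the members. The shares called over all sites were the 32.7% and 18.2% above. By orientation, 33 of 47 DEL sites rose and 0 fell, and 3 of 63 INV sites rose and 20 fell. Family counts are to be read against those of their orientation. All 22 tested Igkv4 sites are INV; 0 rose and 9 fell in limma, with a median of -1.05, and the family went from 30.9% of site junctions in cycling to 13.5% in arrested cells. Of the 8 tested Igkv1 sites, of which 7 are DEL, 8 rose, with a median of 3.85 and a share of 3.72% against 18.6%, and 4 of the 8 had a mean of 50 junctions in cycling libraries. Igkv3, all DEL, had 4 of 8 rises and no call in the other direction, a median of 3.02, and 3.86% against 11.2%. The 4 Igkv3 sites with a mean of 50 junctions in cycling libraries did not pass, and the 4 that rose met the filter through the arrested group. Igkv8, with 2 DEL sites of 9, had 0 rises and 3 falls among 7 tested sites and went from 14.9% to 8.37%. Igkv6, also with 2 DEL sites of 9, had 2 rises among 8 tested sites, at the DEL genes Igkv6-17 and Igkv6-25, and 2 falls, at the INV genes Igkv6-32 and Igkv6-14. Igkv6-25, like Igkv12-98 below, met the filter through the arrested group. Igkv12, with 1 DEL site of 6, had 1 rise, at the DEL gene Igkv12-98, and 1 fall, at the INV gene Igkv12-44, and took 9.74% in cycling and 9.49% in arrested cells. Over all tested sites the median was 0.93. With each site scaled to the junctions of its own orientation, Igkv4 had 0 rises and 3 falls, Igkv1 3 and 0, and Igkv3 2 and 0. Igkv8 had 2 and 2, Igkv6 0 and 1, and Igkv12 1 and 0. The DEL sites among these rises met the filter through the arrested group. Sites next to genes that RefSeq does not call pseudogenes rose at 22 and fell at 16 of 84, and sites next to no annotated gene rose at 12 and fell at 3 of 23. Before the filter, 35 of 89 sites of the first kind and 25 of 45 of the second were DEL. Among the latter rises, the sites at 68544371 and 68830171 had 0 junctions in cycling libraries. They and other sites among these rises met the filter through the arrested group, so the counts are a description only.

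Shares of the locus differed with the orientation that each stretch holds. The Vκ region was split into 4 stretches of 790 kb, with stretch 1 the farthest from Jκ. Stretch 1, mostly DEL, took 6.44% ± 0.879 of site junctions in cycling and 23.4% ± 0.539 in arrested cells. Stretch 3 holds INV sites only and took 43.8% ± 2.77 against 23.3% ± 0.512. Stretches 2 and 4 took 15.7% and 34.0% in cycling and 22.997% and 30.3% in arrested cells. Among INV sites alone stretch 2 took 15.7% ± 0.849 against 26.6% ± 1.13, and without Igkv1-88 15.1% ± 0.822 against 19.8% ± 0.448. Stretch 4 took 33.2% ± 3.08 against 26.9% ± 1.23 without overlap, while stretch 3 overlapped between groups (50.8% against 45.7%, exact permutation p = 0.2). Among DEL sites alone the groups overlapped in stretches 1, 2 and 4, at 45.2% against 46.9%, 15.9% against 19.2% and 38.9% against 33.9% (exact permutation p = 0.9, 0.4 and 0.3). Usage was also spread more widely after arrest: the effective number of sites (inverse Simpson index) was 33.5 ± 3.43 in cycling and 48.8 ± 1.29 in arrested cells.

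With orientation taken out, fewer sites differed. When each site was scaled to the junctions of its own orientation, 13 rose (11.8%) and 8 fell (7.27%) of the 110. Igkv1-135, Igkv16-104 and Igkv6-17 had changes of 0.12, 0.81 and 0.04 on this scale and did not pass. Igkv12-98, Igkv1-122 and Igkv3-3 had changes of 4.36, 2.67 and 3.25 and passed. All 7 DEL sites that passed upward had cycling means of 0.806 per 1000 or less and met the filter through the arrested group, so their count is a description only. Igkv1-88 rose by 4.34 among INV sites, with Igkv8-24 and Igkv8-16 at 3.11 and 1.11. Igkv6-32, Igkv4-50, Igkv8-27 and Igkv8-30 still fell, by 1.34, 1.17, 1.10 and 1.14. Igkv9-120 was the DEL site that fell, by 1.42.

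The shift between orientations was larger from the signal end than from the coding end bait in WT cells of the same treatments. From the Jκ1 coding end, DEL sites took 38.7% ± 1.58 of site junctions in cycling and 41.1% ± 0.874 in arrested cells (SD, n = 3). The difference on arrest was 35.3 percentage points from the signal end and 2.41 from the coding end. The difference between these, 32.9 points, had p = 0.005 in an exact permutation of bait labels within treatment, the smallest p that test can give. The permutation assumes no bait effect in either treatment, so its p does not bear on the change upon arrest alone. By background, coding joints of DEL and INV segments alike stay in the chromosome.

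Site by site, the change from the signal end exceeded that from the coding end at 16 of 112 sites (14.3%) and was below it at 11 (9.82%) in the limma interaction. With distinct junctions and no filter these counts turned to 3 and 27, and with median centring to 9 and 27. Of the 16, 15 were DEL, and all 11 were INV. The median difference was 1.91 over 47 DEL sites and -0.76 over 65 INV sites. Over sites with a mean of 50 junctions in signal end cycling libraries, 9 of 16 DEL sites were higher and 11 of 49 INV sites lower. Igkv1-135 differed by 2.85 ± 0.386 (limma adjusted p = 0.00146), with a change of -0.90 from the coding end. Igkv12-98 had a difference of 5.04, but it met the filter through the arrested group. At Igkv4-72, Igkv4-61 and Igkv4-50 the differences were -2.16, -1.92 and -1.87. The count of 16 depended on single libraries: it was 9 without signal end arrested replicate 1, 8 to 10 without one of the coding end arrested libraries and 25 without signal end cycling replicate 3.

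**Figure D3:**
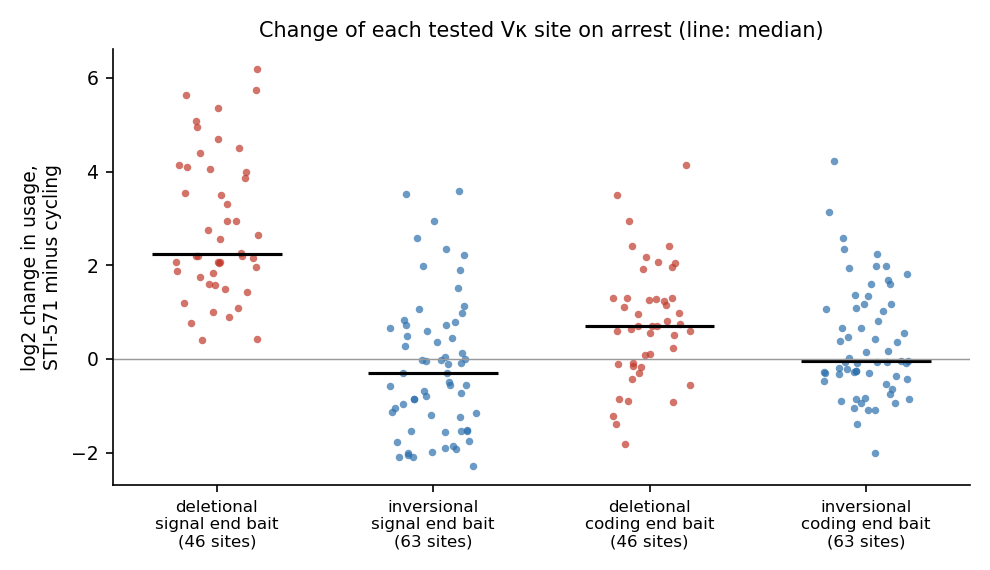
Log2 change in usage of each tested Vκ site, STI-571 minus cycling, for DEL (red) and INV (blue) sites from the signal end bait and from the coding end bait; each point is a site and the line is the median over 46 DEL and 63 INV sites tested from both baits. From the signal end every DEL site lies above 0, but most DEL sites met the filter through the arrested group, so this is a description only. From the coding end both orientations lie on both sides of 0, with medians of 0.71 for DEL and -0.05 for INV sites.

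Nearly all reads of signal joints were precise in both groups. A joint was called precise when no base was inserted and none lost, with a base shared by both ends counted once. Precise joints made up 97.9%, 97.9% and 97.7% of signal joints in cycling and 95.7%, 95.4% and 95.5% in arrested libraries. Counted once, precise joints made up 39.1% to 45.4% of distinct signal joints in cycling and 11.2% to 15.3% in arrested libraries. With fragment ends kept they made up 83.1% to 91.3% against 70.1% to 72.1%. A precise joint has about 1 structure per site, while other structures keep adding as more junctions are read. Shares of joint types over distinct junctions, here and below, therefore also move with depth and cannot alone rank the groups. Joints that had lost bases made up 0.898% ± 0.0150 against 2.50% ± 0.122. The bait end stopped short of the Jκ1 break in 0.846% ± 0.108 of site junctions in cycling and 4.06% ± 0.127 in arrested cells, 4.80-fold. Of the junctions within 100 bp of a break, 99.96% ± 0.0501 against 99.7% ± 0.0774 lay within 10 bp of it.

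Direct, overlapping and inserted joints were told from the gap between bait and prey on the read. Direct joints made up 93.7% ± 1.45 in cycling and 94.7% ± 0.429 in arrested cells and overlapped (exact permutation p = 0.3). Over distinct junctions the share of direct joints was lower in arrested cells, with a difference of -14.9 percentage points, and with fragment ends kept -10.9. Overlaps of bait and prey, read as microhomology, made up 5.07%, 3.78% and 6.32% in cycling and 2.92%, 3.41% and 3.31% in arrested libraries. Over distinct junctions that order turned, with a difference of 12.7 points in favour of arrested cells, and of 1.34 with fragment ends kept. Many of these, and most of those in cycling libraries, were overlaps of 1 base within precise joints, which made up 4.63% ± 1.08 of signal joints in cycling and 1.56% ± 0.219 in arrested cells. They lie at 2 sites whose last coding base is G, the last base of the bait, where 89.9% to 98.5% of signal joints overlapped by 1 base, and one of them is Igkv8-27. Those 2 sites took 3.73% to 5.56% of signal joints in cycling and 1.43% to 1.96% in arrested libraries. Without precise joints, microhomology stood at 0.141% ± 0.128 in cycling and 0.697% ± 0.0419 in arrested cells, the opposite order.

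Insertions were infrequent among reads and short. They made up 1.23%, 1.08% and 1.43% of site junctions in cycling and 1.92%, 2.28% and 2.04% in arrested libraries. Among distinct junctions they made up 54.1%, 46.6% and 44.1% in cycling and 45.1%, 53.3% and 53.0% in arrested libraries, and these overlapped. With fragment ends kept they made up 15.4%, 10.9% and 7.02% against 17.7%, 22.4% and 21.9%, with no overlap. Their mean length, 2.00 ± 0.270 bases against 1.76 ± 0.0470, overlapped between groups (exact permutation p = 0.3). Cycling libraries held 224 to 278 junctions with an insertion, so their lengths rest on few reads.

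Hybrid joints have the Vκ coding end in place of its signal end. Their reads were more numerous in arrested cells at sites of both orientations. At INV sites the hybrid lies on a circle, and there 10, 9 and 6 hybrid junctions were seen in cycling libraries against 3307, 3159 and 3131 in arrested ones. These are 0.0470% ± 0.00999 and 1.91% ± 0.0249 of the junctions at INV sites, a 40.6-fold difference. At DEL sites the hybrid is an inversion, with 32, 82 and 130 junctions in cycling and 2172, 2113 and 3125 in arrested libraries. By number that is 30.4-fold, against 383.9-fold at INV sites. As shares of junctions at DEL sites they made up 1.04%, 2.99% and 4.95% in cycling and 1.301%, 1.34% and 1.96% in arrested libraries, which overlapped (exact permutation p = 0.4). These shares have unlike denominators: all junctions at INV sites differed 9.51-fold between groups and those at DEL sites 57.3-fold. The shares thus cannot rank hybrids on circles against hybrids in inversions. Over all sites hybrids made up 0.446% ± 0.252 against 1.72% ± 0.177, and the log2 ratio of signal to hybrid joints was 7.98 ± 0.928 against 5.84 ± 0.146. The hybrid share was larger without read copies, at 1.79% to 4.44% in cycling and 14.5% to 18.3% in arrested libraries over distinct junctions, and 0.483% to 0.701% against 3.07% to 3.68% with fragment ends kept.

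**Figure D4:**
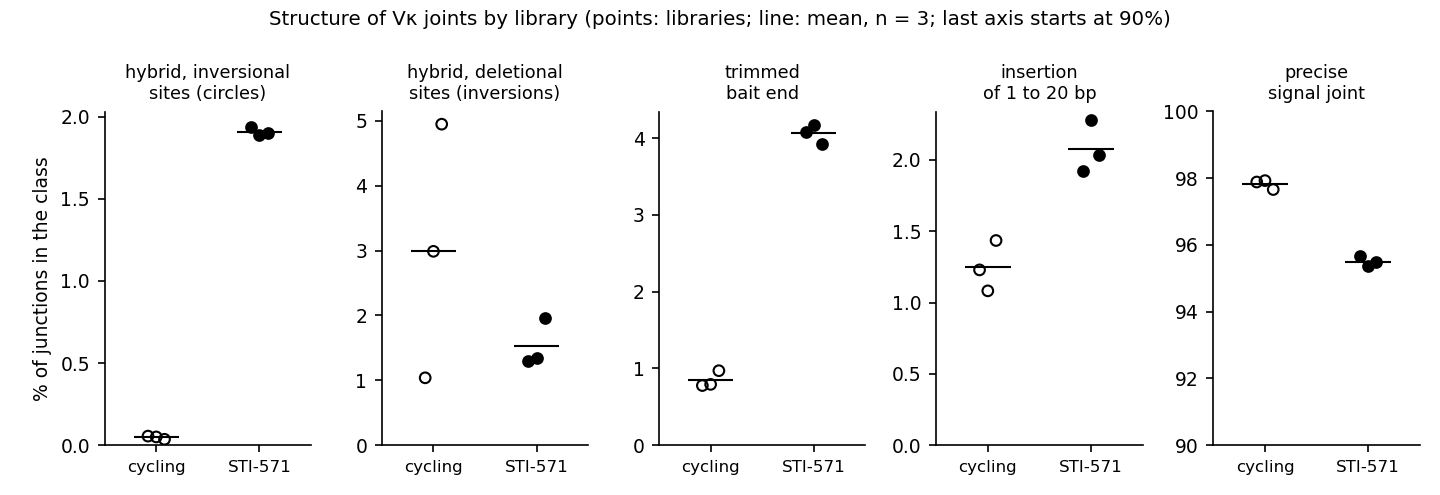
Share of hybrid joints at INV and at DEL sites, of junctions with a trimmed bait end, of junctions with an insertion, and of precise joints among signal joints, in percent; each point is a library, open for cycling and filled for STI-571, and the line is the mean of 3, with the axis of precise joints starting at 90%. Hybrids at INV sites, on circles, are near 0 in the cycling libraries and at 1.91% in the arrested ones. The share of hybrids at DEL sites overlaps between groups, and its denominator differs from that at INV sites.

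Beyond the Vκ genes, the element most joined in cycling cells was the iRS. A joint of the Jκ1 signal end to the iRS signal end deletes Jκ1 to Jκ5 from the chromosome and stays in it. It had 2040, 3038 and 2145 junctions in cycling libraries and 858, 883 and 923 in arrested libraries, 2.71-fold more in cycling cells, although cycling libraries held far fewer junctions in all. Distinct iRS junctions numbered 12, 13 and 14 in cycling and 21, 15 and 10 in arrested libraries, which overlapped, so the excess is one of reads. As a share of all junctions it took 8.41%, 12.1% and 9.49% in cycling and 0.243%, 0.260% and 0.272% in arrested libraries. It accounted for 96.1% ± 2.02 of the deletion products of cycling cells and 13.1% ± 0.443 of those of arrested cells. In cycling libraries 96.8% to 98.7% of these joints were precise, with the G before the heptamer shared with the bait, and in arrested libraries 73.3% to 94.5%.

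Deletion products other than the iRS were far more frequent after arrest, 117, 49 and 104 junctions in cycling and 5485, 5850 and 6378 in arrested libraries, 65.6-fold. Relative to site junctions they differed 4.07-fold. Joints to the coding side of the RS, which delete Cκ, had 0, 0 and 4 junctions in cycling and 2263, 2098 and 2564 in arrested libraries. Joints to the Jκ5 coding end had 41, 7 and 24 against 1813, 1932 and 2337, and those to the Jκ4 coding end 62, 27 and 43 against 1139, 1493 and 1357. Jκ2 had at most 41 coding end junctions in any library, and Jκ3, known for a signal that does not work, had 0 in all 6, which allows up to 3 junctions per library. All these joints are hybrids that lose the sequence from Jκ1 to their partner.

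Joints to the Jκ4 signal end were also more frequent in cycling cells. They had 216, 454 and 259 junctions in cycling and 57, 46 and 98 in arrested libraries, 4.62-fold more in cycling cells, and this joint is an inversion kept in the chromosome. Its reads came from 1 to 5 distinct junctions in each library, so its counts rest on few joint structures. Junctions back to the Jκ1 coding end numbered 432, 625 and 619 in cycling and 889, 662 and 631 in arrested libraries, close in number but 27.5 ± 6.26 against 2.21 ± 0.372 per 1000 site junctions. The Jκ region within 2 kb of the bait break thus took 4.03% ± 0.768 of all junctions in cycling and 1.27% ± 0.114 in arrested cells, but 0.194% against 0.873% of read pairs. Chromosome 6 outside the Vκ and Jκ regions took 10.6% ± 1.85 against 1.83% ± 0.115 of junctions, mostly iRS joints in cycling cells. Over distinct junctions the order of this last share, outside the Vκ and Jκ regions, turned, with the difference given in the last section.

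**Figure D5:**
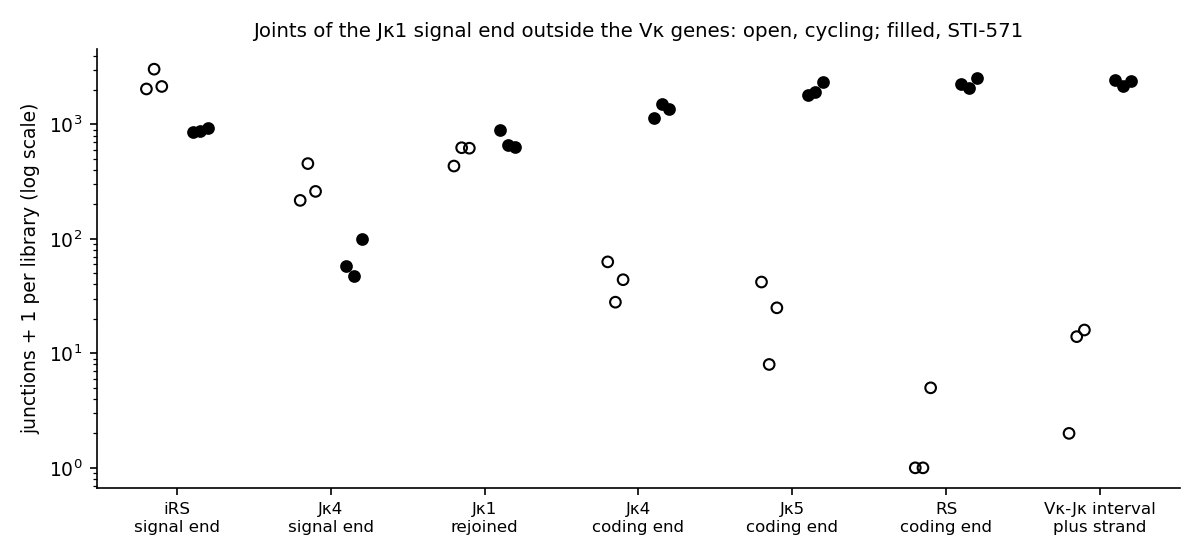
Junctions per library, plus 1, on a log scale, for joints of the Jκ1 signal end to the iRS and Jκ4 signal ends, back to the Jκ1 coding end, to the coding sides of Jκ4, Jκ5 and the RS, and to the plus strand of the interval between the Vκ genes and Jκ1; open points are cycling and filled points STI-571 libraries. The first pair is higher in cycling cells and the last 4 in arrested cells.

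The interval between the Vκ region and the Jκ region was joined almost only in arrested cells and nearly always on its plus strand, the circle product. Its plus strand had 1, 13 and 15 junctions in cycling and 2440, 2172 and 2379 in arrested libraries, and its minus strand at most 12 in any library. Of 16 positions with at least 100 junctions there, 13 had CAC at the break or 1 base from it. The most used, at 70667108, has CACCGTG and held 511, 253 and 393 junctions in arrested libraries and none in cycling ones. Within the Vκ region, junctions more than 200 bp from every site made up 0.0988% ± 0.0988 in cycling and 1.13% ± 0.0629 in arrested cells.

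Joints to other chromosomes were few in both groups. Cycling libraries had 3, 0 and 2 and arrested libraries 464, 300 and 207, or 0.00707% ± 0.00637 and 0.0937% ± 0.0356 of junctions. The 0 of 25104 junctions in cycling replicate 2 allows a share of up to 0.0120%, and this limit, like the intervals, covers counting error only. Counted once, arrested libraries held 47, 47 and 40 distinct joints. Of the 971 junctions in arrested cells, 348 lay in Tcra/Tcrd on chromosome 14, 96 in Igh on chromosome 12, 4 in Igl and 0 in Tcrg. Of those in Tcra/Tcrd, 269 came from arrested replicate 1, against 52 and 27, while junctions outside these loci numbered 160, 193 and 170. A single position on chromosome 14 held 14.1% of the 971.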

How the data were processed

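The deposited files list one junction per line, with prey position and strand on mm9, bait end and the aligned stretches of both partners within the read; these coordinates are the only values used. Before deposit the authors demultiplexed and adapter-trimmed the reads, sampled 500000 read pairs per library, mapped them with TranslocWrapper.pl (the labels name Bowtie2, with no version) with duplicates kept, and added bait region junctions. Here, sites were pileups of at least 30 junctions, with no higher one within 50 bp and CAC next, shifted by 1 base at most. Each junction went to the nearest site within 200 bp; prey strand told signal from hybrid joints. Jκ, iRS and RS windows were 150 bp. Genes came from GENCODE vM1 on NCBIM37. Library means were compared by exact two-sided permutation, and sites with limma 3.58.1 (Benjamini-Hochberg, 0.05). A run of the limma code on simulated data used median centring and changes at well-filled sites only, so it did not test the reported fit. Named sites are the 10 largest rises and falls past the threshold with no overlap between groups, and the 5 most used of each group. Members and lists were chosen with earlier results of these data known. The labels give no replicate numbers, so nothing was paired. Alternatives were other windows, copies counted once, other site sets, scalings and filters, and each library left out; counting by fragment end, scaling within orientation, sites from cycling libraries and leaving out Igkv1-88 were chosen after seeing the data.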

Additional observations from a re-analysis of the deposited data

Results flagged for a closer look

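The change in the share of DEL sites on arrest was 32.9 percentage points larger from the signal end than from the coding end bait. It was flagged by the exact permutation of bait labels within treatment, which assumes no bait effect in either treatment. Of single Vκ sites, 16 had a higher and 11 a lower change from the signal end in the limma interaction. These counts were 3 and 27 with distinct junctions and no filter, and 9 and 27 with median centring. Groups of 3 libraries were too small for a test of single libraries that stand apart.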

How the results depend on the processing

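Of 312 comparison values recomputed under the alternatives, 279 were marked the same, and of 504 values at named sites 434 kept direction and call. For differences of library means this mark checks the sign only, and for counts of sites it also limits the size. A difference marked the same may thus have changed much in size. Counting each distinct junction once turned the sign of 5 differences (arrested minus cycling): direct joints to -14.9 percentage points, microhomology to 12.7, mean insertion length to 0.670 bases, chromosome 6 outside the Vκ and Jκ regions to 1.12 and deletion products to 1.26. With fragment ends kept, the first 3 stood at -10.9, 1.34 and 0.166. Shares over distinct junctions also move with depth. Microhomology without precise joints differed by 0.556. The Jκ region as a share of read pairs differed by 0.680. With the end told from the side of the break, the log2 ratio of signal to hybrid joints differed by 0.47 and the hybrid share by -1.39 points; on that rule 88.1% to 94.3% of the coding-side junctions in cycling libraries were signal-strand joints with a 1-base overlap. At DEL sites alone the hybrid share differed by -1.46.

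The number of sites that rose was 7 with distinct junctions, 21 with median centring, 107 per read pairs, 13 within orientation, 21 with sites from cycling libraries and 22 to 40 with a library left out. The number that fell was 67 with distinct junctions, 44 with fragment ends kept, 0 per read pairs, 8 within orientation and 15 to 22 with a library left out. Sites whose change was higher from the signal end numbered 9 with median centring, 3 with distinct junctions and 8 to 25 with a library left out, and sites lower numbered 27, 27 and 8 to 16. The fits with distinct junctions or with fragment ends kept used no filter. In them the added junction weighs more in the smaller cycling lists and lowers changes, so their counts cannot show how far read copies matter.

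With distinct junctions the changes of Igkv3-3, Igkv3-9, Igkv1-99 and Igkv8-16 stood at -0.068, -0.27, -0.58 and -0.22. Cycling libraries held 1 junction in all at Igkv3-3 and 0 at Igkv3-9 and Igkv1-99. The signs at these 3 sites thus come from the added junction and show no fall. Igkv8-16 stood at -0.47 with median centring and -0.14 with fragment ends kept, and Igkv12-44 at 0.037 within orientation. Per read pairs the sites that fell had changes above 0: Igkv6-32 1.91, 69994105 1.91, Igkv5-48 1.95, Igkv4-72 2.00, Igkv4-61 2.03, Igkv4-50 2.08, Igkv8-30 2.11, Igkv8-27 2.16, Igkv4-86 2.24, Igkv4-56 2.26, Igkv12-44 3.29 and 69631399 2.47. Where no cause is given it was not tested. Depth limits the cycling libraries, in which 45 of the 110 tested sites had a mean under 50 junctions.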
